A study of Homo sapiens with 8 samples.

Results

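The replication-dependent histone genes of human chromosomes 1 and 6 were examined for summits of the transcription factor Sp1 and of the zinc finger protein CTCF in the human osteosarcoma line U-2 OS. Members were the protein-coding genes of GENCODE release 44 on hg38 whose symbol starts with H1-, H2AC, H2BC, H3C or H4C followed by a number, and 68 of the 20033 protein-coding genes met this rule. They comprised 6 H1, 17 H2A, 18 H2B, 13 H3 and 14 H4 genes. The rule used gene names and no measured value.

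Replication-dependent histone genes supply the bulk of new histones while DNA is copied in S phase. Most are short, lack introns, lie in clusters and end in a stem-loop in place of a poly(A) tail, and many H2A and H2B genes share a promoter from which they are transcribed in opposite directions. Their promoters are known for a TATA box, for CCAAT boxes bound by NF-Y and, at H2B genes, for an octamer bound by Oct-1. Sp1 binds GC boxes through its zinc fingers and acts at many promoters, and CTCF binds a long recognition sequence and helps to set the borders of chromatin loops.

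Chromatin immunoprecipitation followed by sequencing (ChIP-seq) had been carried out after 6 min of crosslinking in 1% formaldehyde. A U-2 OS line with V5-Halo-SP1 knocked in at the endogenous gene, called parental in the sample titles, was the source of 4 libraries, namely Sp1 antibody 1, Sp1 antibody 2, normal rabbit IgG and an input. For CTCF, the labels name clone C32, in which FLAG-Halo-CTCF was knocked in at the endogenous gene, with 2 replicates and an input for each, whereas the series description names wild type cells and a legend of the study assigns the CTCF peaks to the V5-Halo-SP1 line. The grouping here keeps to the labels, by which Sp1 and CTCF were profiled in different edited lines, and target and line cannot be told apart. The labels do not say whether the CTCF replicates came from separate cultures, and each Sp1 antibody and IgG had 1 library, which leaves no basis for a p-value. Peak lists carry no expression values, so the cell line could not be checked against marker genes.

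The 5 peak lists hold 8706 peaks for Sp1 antibody 1, 5973 for antibody 2, 42765 and 36082 for CTCF replicates 1 and 2, and 106 for IgG. Such lists give no depth, and read numbers of the study were not used here. Each peak has a summit, its highest point, and a fold enrichment at that summit over the control, as the peak caller gave it. A gene was scored as having a promoter summit when a summit lay within 1 kb of any of its annotated transcript starts.

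The members fell into 6 clusters when neighbours up to 100 kb apart were joined. The large chromosome 6 cluster held 32 genes from H1-1 to H4C8 (chr6:26017032-26285638). The distal chromosome 6 cluster held 16 genes (chr6:27807479-27893891), and the main chromosome 1 cluster held 11 genes (chr1:149782689-149887965). A small chromosome 6 cluster held 5 genes (chr6:27125897-27147562). A pair on chromosome 6 (chr6:25723397-25727345) and a pair on chromosome 1 (chr1:228434777-228463104) completed the set.

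Summits of both proteins fell at nearly the same position upstream of H1-1 (chr6:26017032-26017787, minus strand), which encodes a linker histone. The summits of Sp1 antibody 1, Sp1 antibody 2, CTCF replicate 1 and CTCF replicate 2 lay at chr6 positions 26017877, 26017878, 26017882 and 26017880, within 5 bp of one another and 90 to 95 bp upstream of the start. The 101 bases around the antibody 1 summit (chr6:26017827-26017927, hg38, H1-1 strand) are shown because they hold the best match to the CTCF core, with 2 mismatches, 13 bp upstream of a GC box (GGGCGG), both in capitals.

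H1-1: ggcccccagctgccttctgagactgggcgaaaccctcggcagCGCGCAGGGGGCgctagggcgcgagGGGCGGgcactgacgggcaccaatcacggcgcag

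Both Sp1 summits, like those of CTCF, lay inside the CTCF core match and outside the GC box. The GC box ended 17 bp from the antibody 1 summit and 18 bp from that of antibody 2. Fold enrichment at H1-1 was 9.06 with antibody 1 and 4.26 with antibody 2. CTCF gave 48.7 and 34.7, the highest fold of replicate 2 and the next to highest of replicate 1 among the members. At no other member did Sp1 and CTCF summits lie so close: across the 8 members called with antibody 1 and CTCF replicate 1, the median gap between the nearest such summits was 162 bp, with a range of 5 to 1039 bp.

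The divergent H2A and H2B promoters are given by the sequence between the starts of the pair, on the plus strand of hg38. Capitals mark the GC box (GGGCGG), the CCAAT box (CCAAT), the TATA box (TATAAA) and the octamer (ATTTGCAT) on either strand, and overlapping words run together. H2BC21–H2AC20 (chr1:149886683-149886917) is shown as the pair with the highest Sp1 fold, H2BC12–H2AC12 (chr6:27146856-27147105) as a pair with low folds in both Sp1 lists, and H2BC8–H2AC8 (chr6:26216689-26216920) as a pair with no summit in any list.

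H2BC21–H2AC20: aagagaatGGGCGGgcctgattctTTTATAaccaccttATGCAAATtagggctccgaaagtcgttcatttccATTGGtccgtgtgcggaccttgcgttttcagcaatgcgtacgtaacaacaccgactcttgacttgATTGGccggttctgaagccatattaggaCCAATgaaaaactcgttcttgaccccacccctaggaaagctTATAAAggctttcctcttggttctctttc

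H2BC12–H2AC12: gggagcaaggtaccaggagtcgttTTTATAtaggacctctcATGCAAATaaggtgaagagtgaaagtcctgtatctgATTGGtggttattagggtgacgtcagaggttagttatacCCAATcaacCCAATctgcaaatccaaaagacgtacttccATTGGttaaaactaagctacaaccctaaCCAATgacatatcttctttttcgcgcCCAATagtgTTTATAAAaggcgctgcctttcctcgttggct

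H2BC8–H2AC8: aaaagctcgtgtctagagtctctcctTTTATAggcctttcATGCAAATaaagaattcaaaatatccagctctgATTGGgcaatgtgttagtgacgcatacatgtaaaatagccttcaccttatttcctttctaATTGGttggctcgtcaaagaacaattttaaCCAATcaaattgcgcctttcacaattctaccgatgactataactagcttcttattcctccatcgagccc

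All 3 spaces hold an octamer and at least 3 CCAAT boxes, and only H2BC21–H2AC20 holds a GC box. There the antibody 2 summit (149886692) fell inside the GC box, and the antibody 1 summit (149886915) lay 219 bp away, beside the H2AC20 start.

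The H4 promoters are shown by the 150 bases upstream of 3 genes, read on each gene's strand. H4C11 (chr6:27823942-27824091) had the highest fold of antibody 1 among the members, H4C12 (chr6:27831561-27831710) is its near copy, and H4C14 (chr1:149832507-149832656) is identical over these bases to H4C15.

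H4C11: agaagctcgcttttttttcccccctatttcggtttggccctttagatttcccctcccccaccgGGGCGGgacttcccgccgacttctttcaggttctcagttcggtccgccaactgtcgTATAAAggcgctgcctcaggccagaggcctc

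H4C12: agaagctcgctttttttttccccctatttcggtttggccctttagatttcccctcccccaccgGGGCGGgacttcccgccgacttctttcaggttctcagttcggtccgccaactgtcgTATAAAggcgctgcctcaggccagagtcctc

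H4C14: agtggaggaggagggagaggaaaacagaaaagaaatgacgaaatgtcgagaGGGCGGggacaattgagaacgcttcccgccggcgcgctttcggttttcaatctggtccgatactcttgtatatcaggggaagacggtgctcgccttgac

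Each holds 1 GC box and no CCAAT box. H4C11 and H4C12 shared 148 of the 150 bases. Antibody 1 gave 12.3 at H4C11 and 3.92 at H4C12, and antibody 2 gave 5.34 at H4C11 and no summit at H4C12. Reads of near copies can be placed at either, and whether this bears on the difference was not tested. The antibody 1 summit at H4C11 lay 17 bp from the GC box.

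To ask whether Sp1 occupied the histone genes more or less often than other genes, the share of members with a promoter summit was set beside that of all protein-coding genes. Antibody 1 called 25 of 68 members (36.8%, 95% Wilson interval 26.3 to 48.6), against 37.3% of all coding genes. Antibody 2 called 18 members (26.5%, 17.4 to 38.0), against 24.1%. Both antibodies called 15 members (22.1%, 13.8 to 33.3), against 21.1%, and either antibody called 28 (41.2%, 30.3 to 53.0), against 40.3%. In all 4 counts the share of all genes lay inside the interval of the members, so no difference was detectable. The intervals cover counting error only, and neighbouring members often share a peak.

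CTCF summits were less frequent at the members by the same measure. Replicate 1 called 12 members (17.6%, 10.4 to 28.4), against 32.4% of all coding genes, and replicate 2 called 9 (13.2%, 7.12 to 23.3), against 24.8%. Both replicates called 8 (11.8%, 6.08 to 21.5), against 24.2%, and either called 13 (19.1%, 11.5 to 30.0), against 33%. These backgrounds lay above the intervals, but members have fewer annotated starts than other genes, with a median of 1 against 5. When the annotated gene start alone was used, the members' counts were the same in each of the 5 lists. The shares of all coding genes fell to 32% and 20.5% for the Sp1 antibodies and to 21.9% and 15.9% for the CTCF replicates, and all 4 then lay inside the members' intervals. Whether the CTCF share of the members stood below that of all genes thus depended on which starts were scored.

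**Figure D1:**
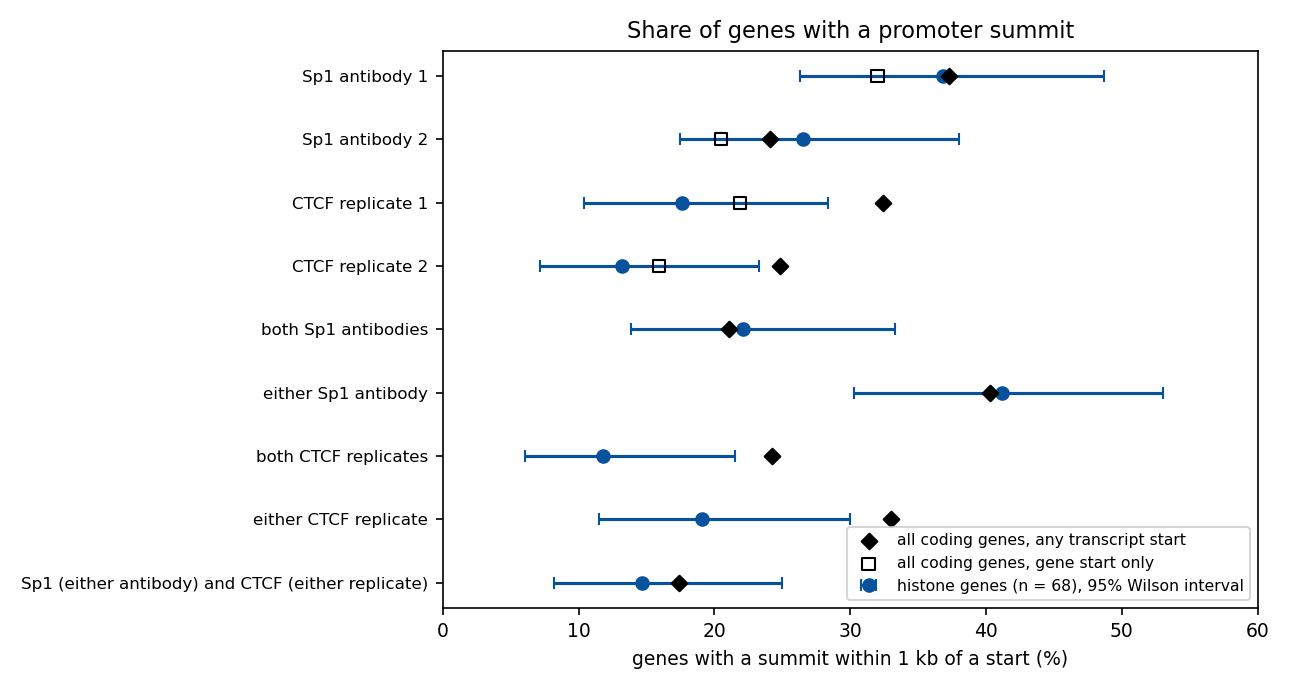
Share of genes (%) whose start had a summit within 1 kb. Circles with bars are the 68 histone genes with 95% Wilson intervals, diamonds are all coding genes scored at any transcript start, and open squares are all coding genes scored at the gene start only, for the 4 single lists. Diamonds lie outside the members' interval for CTCF only, and each open square lies inside its interval.

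The IgG list had no summit within 1 kb of any member (0 of 68, with an upper Wilson limit of 5.35% and a limit of 4.41% by the rule of 3 counts), against 0.025% of all coding genes. Sp1 and CTCF, each in either list, were called together at 10 members (14.7%, 8.19 to 25.0), against 17.4% of all coding genes. Of the 13 members with CTCF, these 10 also had Sp1 (76.9%), compared with 52.5% of all coding genes with CTCF. Sp1 without CTCF was called at 18 members, and CTCF without Sp1 at 3, namely H2AC18, H2AC21 and H1-2. The remaining 37 members had no summit of any list. The starts of H2AC18 and H2AC21 nevertheless lay inside broad peaks of both Sp1 antibodies, whose summits were over 1 kb away. When any part of a peak within 1 kb was scored, Sp1 antibodies 1 and 2 called 29 and 22 members. Sp1 with CTCF was then called at 12.

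The Sp1 antibodies coincided at members about as often as they did at all genes. Of the antibody 1 members, 15 of 25 (60%) were also called with antibody 2, compared with 56.6% over all coding genes. Of the antibody 2 members, 15 of 18 (83.3%) were also called with antibody 1, compared with 87.7%. The 3 called with antibody 2 alone were H3C15 and the divergent pair H2AC7–H2BC7. At the 15 shared members the summits of the 2 antibodies lay a median of 78 bp apart (range 1 to 321 bp), and 10 were within 100 bp. The CTCF replicates were closer, with a median of 11 bp (0 to 91 bp) at their 8 shared members. Of the replicate 1 members, 8 of 12 (66.7%) were also called in replicate 2, compared with 74.7% over all coding genes.

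H1 genes encode the linker histones that bind DNA at its entry to the nucleosome. H1-1 alone of the 6 had Sp1, beside 40.3% of all coding genes with either antibody. So few genes do not allow a comparison of the shares. H1-2 had a CTCF replicate 1 summit with a fold of 3.76, which lay 811 bp into the gene's direction and past its 3′ end, and no summit in replicate 2. The other H1 genes, H1-3, H1-4, H1-5 and H1-6, had no summit in any list.

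H4 genes encode the most conserved core histone, and 8 of the 14 had a summit of antibody 1, 4 of them also of antibody 2. Over all coding genes antibody 1 called 37.3% and both antibodies called 21.1%. The 8 include the near-identical copies H4C11 and H4C12, and H4C14 and H4C15. So few genes, not all independent, do not allow a comparison of the shares. H4C11 (12.3 and 5.34), H4C14 (9.29 and 6.09) and H4C15 (7.22 and 4.12) had higher folds with antibody 1. H4C5 was higher with antibody 2 (4.02 and 6.00). H4C9 (5.64), H4C2 (5.30), H4C1 (3.92) and H4C12 (3.92) were called with antibody 1 alone. Their antibody 1 summits sat close to the start, between 180 bp upstream and 45 bp downstream of it.

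CTCF, in either replicate, was called at 4 H4 genes, beside 33% of all coding genes by any start. H4C2 had the highest CTCF fold of the members in replicate 1 (64.0, with 32.8 in replicate 2), at summits 843 and 844 bp downstream of the start and beyond the 3′ end of this short gene. The summit is thus near the H4C2 start by distance and lies outside the transcribed region. H4C15 gave 20.3 and 12.7, and H4C14 gave 12.4 and 8.79, both from 48 to 75 bp downstream of the start and within the exon. H4C5 gave 4.05 in replicate 1 only.

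H3 genes encode the core histone whose tail carries many of the regulatory modifications. H3C14 alone of the 13 was called with both Sp1 antibodies (8.37 and 8.23), beside 21.1% of all coding genes. H3C15 had 9.94 with antibody 2, the highest fold of that antibody among the members. H3C2 (6.84) and H3C10 (3.28) were called with antibody 1 alone. All 4 of these also had CTCF. H3C14 had a CTCF summit on each side of its start, with strongest folds of 7.80 and 3.97 in replicates 1 and 2, and its copy H3C15 had 9.64 and 4.31. H3C2 had 5.21 in replicate 1 only, and H3C10 had 3.03 in replicate 2 only.

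H2A and H2B form the dimers that flank the H3–H4 tetramer. Sp1, in either list, was called at 7 of 17 H2A genes and 8 of 18 H2B genes, beside 40.3% of all coding genes. CTCF was called at 3 H2A genes and at none of the 18 H2B genes within 1 kb of a start. Over all coding genes, either replicate called 33% by any start, and replicates 1 and 2 called 21.9% and 15.9% by the gene start alone. The summits of the 3 H2A calls all lay over 500 bp from the start, and H2AC18 and H2AC19 are near-identical copies. The difference between the families was not tested. H2AC21, at the edge of the main chromosome 1 cluster, had CTCF folds of 34.6 and 17.6 at a summit 633 bp upstream in both replicates. H2AC19 had 9.64 and 3.46, and H2AC18 had 7.12 in replicate 1, with all of these summits beyond the 3′ ends of the genes.

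**Figure D2:**
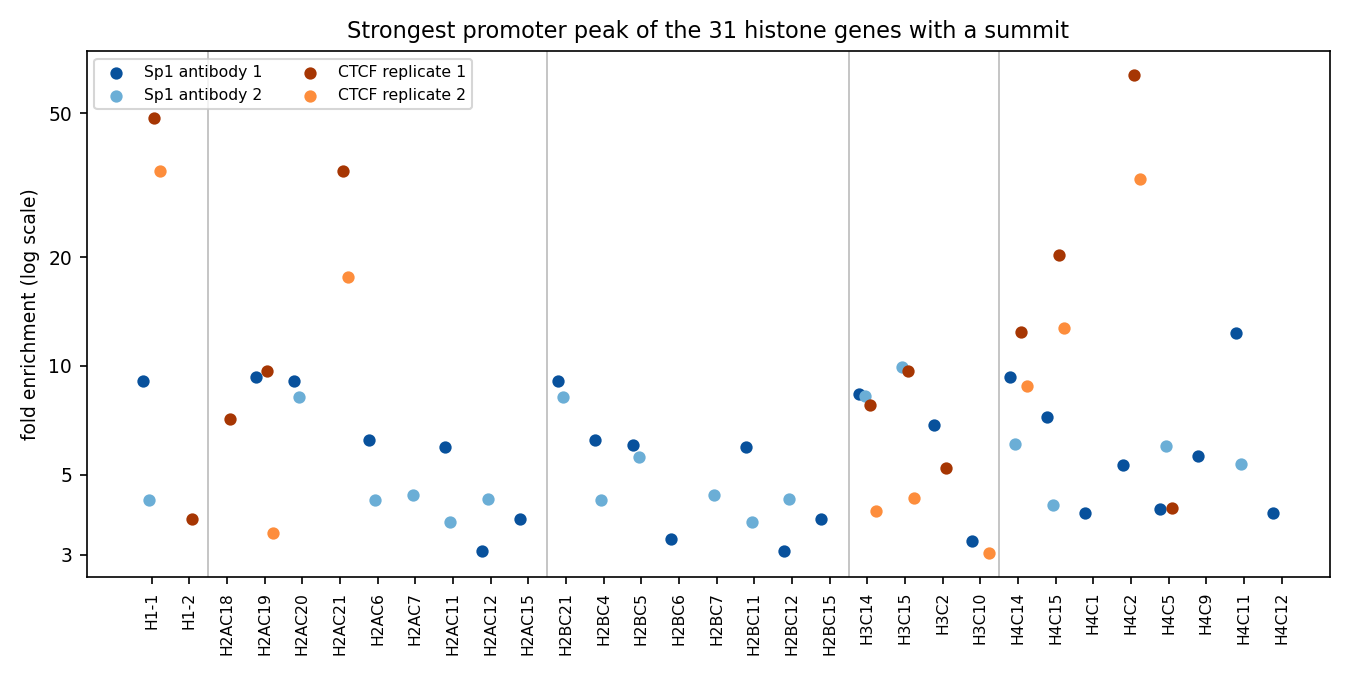
Fold enrichment (log scale) of the strongest promoter peak of each histone gene with a summit, by list, with families separated by vertical lines. Sp1 folds of the members lie between 3.08 and 12.3, and CTCF folds reach 64.0 at H4C2, 48.7 at H1-1 and 34.6 at H2AC21.

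Sp1 calls at H2A and H2B genes were set against their arrangement in divergent pairs. The members formed 14 divergent pairs with starts up to 1 kb apart, 12 of them an H2A with an H2B gene, and the starts were 169 to 978 bp apart with a median of 237 bp. Of the 25 H2A and H2B genes in a pair, 12 had Sp1, and of the 10 in no pair, 3 had Sp1. Because the genes of a pair share their peaks, these counts rest on few peaks, and the difference was not tested. Sp1 was called at 6 of the 14 pairs, and in each of the 6 at both genes. CTCF was called at none of the 14. Over all coding genes, either Sp1 antibody called 40.3% and either CTCF replicate called 33% by any start. Those are shares of genes and not of pairs, and a share over other divergent promoters was not computed. With starts this close, a summit within 1 kb of 1 gene mostly lies within 1 kb of the other, so calls at both genes carry little information.

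Both antibodies called 4 pairs. H2BC21–H2AC20 had the highest folds (9.06 and 8.17). H2BC4–H2AC6 had 6.22 and 4.26, where the strongest antibody 1 summit lay 706 bp into the long H2BC4 gene and a weaker one of 4.09 lay 78 bp from the antibody 2 summit. H2BC11–H2AC11 had 5.95 and 3.70, with a weaker antibody 1 peak of 4.97 whose summit lay 15 bp from that of antibody 2. H2BC12–H2AC12 had 3.08 and 4.27, with the summits 321 bp apart. H2AC7–H2BC7 was called with antibody 2 alone (4.40) and H2AC15–H2BC15 with antibody 1 alone (3.76). Outside the pairs, H2BC5 had both antibodies (6.04 and 5.60, with summits 290 bp apart), H2BC6 had antibody 1 (3.31), and H2AC19 had antibody 1 (9.30, summit 148 bp upstream). The H2BC6 summit lay 75 bp downstream of the first of its 2 annotated starts. The 150 bases upstream of that start hold a GC box and no CCAAT box, TATA box or octamer.

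**Figure D3:**
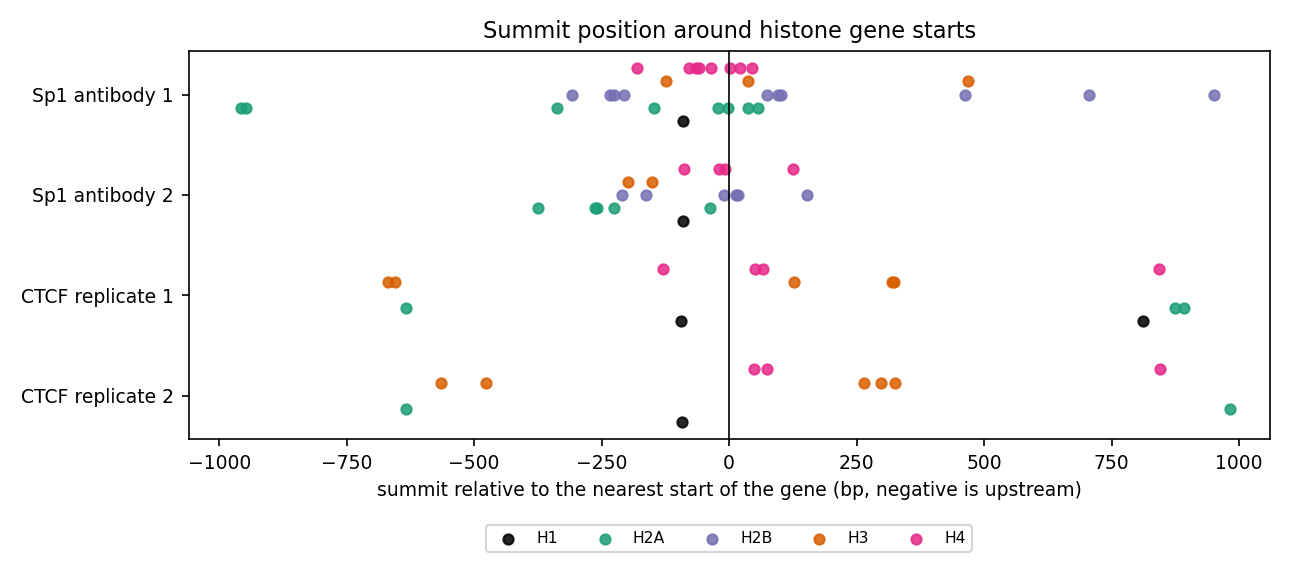
Position of each summit within 1 kb of a histone gene start (bp, negative is upstream), by list and coloured by family. A peak near 2 genes is plotted for each; Sp1 summits gather within 250 bp of the start, with median distances of 75 and 88 bp, and CTCF summits are spread, with medians of 322 and 312 bp.

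The promoter peaks of the members were weak for their lists. Antibody 1 had 23 distinct promoter peaks at members, of which 7 served more than 1 gene, with a median fold of 5.64 (range 3.08 to 12.3) against 8.40 over all coding promoter peaks. Antibody 2 had 13, of which 5 were shared, with a median of 5.34 (3.70 to 9.94) against 6.88. CTCF had 12 and 10 distinct peaks with medians of 8.99 and 6.55, against 18.4 and 17.3. The median member peak stood at the 28.5th and 30.4th percentile of all peaks of antibodies 1 and 2, and at the 24.9th and 17.8th of CTCF replicates 1 and 2. In position, 19 of 23 and 13 of 13 Sp1 peaks had their summit within 250 bp of a member's start, and the median distance was 75 and 88 bp against 71 bp over all coding promoter peaks in both lists. CTCF summits lay farther out than those of Sp1, with 5 of 12 and 3 of 10 within 250 bp and median distances of 322 and 312 bp. Over all coding promoter peaks the CTCF medians were 218 and 225 bp. All distances run to the nearest annotated start, and members have a median of 1 start against 5 for all coding genes. More starts can shorten the distances over all genes, and distances to the gene start alone were not computed.

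Calls were spread unevenly over the clusters. In the small chromosome 6 cluster Sp1 was called at all 5 genes, H2BC11, H2AC11, H4C9, H2BC12 and H2AC12, and CTCF at none. In the main chromosome 1 cluster, Sp1 was called at 7 of 11 genes and CTCF at 7. In the large chromosome 6 cluster, Sp1 was called at 11 of 32 and CTCF at 5. In the distal chromosome 6 cluster, Sp1 was called at 5 of 16 and CTCF at 1. The H2AC1–H2BC1 and H2AC25–H2BC26 pairs had no summit. Over all coding genes, either Sp1 antibody called 40.3% and either CTCF replicate called 33%. In the main chromosome 1 cluster, every gene with CTCF except H2AC21 has a near-identical copy. The counts per cluster are descriptions and were not tested, since genes of a cluster are not independent of one another.

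Near-identical sequence limits the main chromosome 1 cluster and, at H4C11 and H4C12, the distal chromosome 6 cluster. Of the 68 members, 10 had a copy of at least 98% identity over at least 500 bp of the 2001 bases around their start: H2AC18, H2AC19, H2BC18, H3C13, H3C14, H3C15, H4C11, H4C12, H4C14 and H4C15. The windows of H3C14 and H3C15 were identical to each other over all 2001 bases, as were those of H4C14 and H4C15. From which copy the reads came cannot be told apart, and how reads with several positions were handled is not stated in the sources used here. At the identical H4C14 and H4C15, the folds were 9.29 and 7.22 with antibody 1, 6.09 and 4.12 with antibody 2, 12.4 and 20.3 in CTCF replicate 1, and 8.79 and 12.7 in replicate 2. Antibody 1 called H3C14 and not H3C15 by its summit. The antibody 1 peak with its summit beside H2AC19 (chr1:149850639-149853128) covered the start of H3C15 as well. Among the 58 members without such a copy, CTCF was called at 6 in replicate 1, 4 in replicate 2 and 3 in both, and Sp1 with CTCF at 5.

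A limit of 500 bp left the Sp1 counts at 25 and 18, and brought CTCF to 7 and 6. Nearest inside 1 kb for antibody 1 were H2BC21, through a weaker peak at 951 bp (fold 4.13), and H2AC11, through a peak at 958 bp (5.95), and both also had a closer summit. Nearest outside were H3C1 at 1018 bp (3.92) and H2AC21 at 1050 bp (9.06), through peaks of H4C1 and of H2BC21–H2AC20. For antibody 2 the farthest call was H2AC7 at 375 bp (4.40) and the nearest beyond the limit was H2AC21 at 1273 bp (8.17). For CTCF replicate 1, H2AC19 at 891 bp (9.64) lay inside and H2AC4 at 1647 bp (5.21) outside. For replicate 2, H2AC19 at 982 bp (3.46) lay inside and H2AC18 at 1066 bp (3.97) outside. With 5 kb, the Sp1 antibodies called 35 and 26 members and the CTCF replicates 26 and 22.

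The space between clustered genes, over 1 kb from any member's start, amounted to 0.405 Mb and was examined next. It held no summit of Sp1 antibody 1, 1 of antibody 2, 9 of CTCF replicate 1, 6 of replicate 2 and none of IgG. Per Mb, CTCF gave 22.2 and 14.8 summits, beside 14.5 and 12.2 over the genome. All 6 replicate 2 summits lay within 100 bp of a replicate 1 summit. The 3 that were found in replicate 1 alone had low folds of 3.79 to 5.79.

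The 6 shared CTCF sites are shown by 42 bases each (hg38), with the 12 bases that best match the CTCF core in capitals, read on the strand of the match.

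chr1:149792577-149792618: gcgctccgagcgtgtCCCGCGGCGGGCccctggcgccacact

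chr6:26064695-26064736: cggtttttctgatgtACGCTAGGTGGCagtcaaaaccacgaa

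chr6:26066062-26066103: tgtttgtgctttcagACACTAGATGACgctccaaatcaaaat

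chr6:26097449-26097490: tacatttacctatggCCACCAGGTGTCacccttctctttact

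chr6:26175567-26175608: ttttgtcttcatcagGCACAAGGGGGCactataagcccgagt

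chr6:27127217-27127258: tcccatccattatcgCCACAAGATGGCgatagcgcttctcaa

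The first site, in an intron of a long H2BC18 transcript, had folds of 109 and 42.1 in replicates 1 and 2, and its best match has 3 mismatches. The next 2 lay between H1-2 and H2BC4 in the large chromosome 6 cluster, with folds of 41.1 and 25.9 and of 72.9 and 34.3. The last 3 lay in introns of long transcripts of H2BC4 (48.0 and 31.5) and H2BC6 (41.4 and 22.0) and, in the small chromosome 6 cluster, of H2BC11 (86.2 and 56.6). At 5 of these 6 sites the core had at most 2 mismatches, compared with 80.2% of all replicate 1 peaks. Of the 8 peaks within 1 kb of a member's start that both replicates shared, 5 met this measure, including the site beyond H4C2 (chr6:26026430-26026471) with 1 mismatch.

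H4C2: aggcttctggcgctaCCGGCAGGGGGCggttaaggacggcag

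Within 20 kb outside the cluster ends lay a further 11 summits of replicate 1 and 10 of replicate 2, of which 10 were shared. The strongest of these in replicate 1 was 2265 bp from the H2BC17 start, at the end of the distal chromosome 6 cluster, with folds of 107 and 19.3. Inside that cluster no CTCF site between genes was shared by the replicates.

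**Figure D4:**
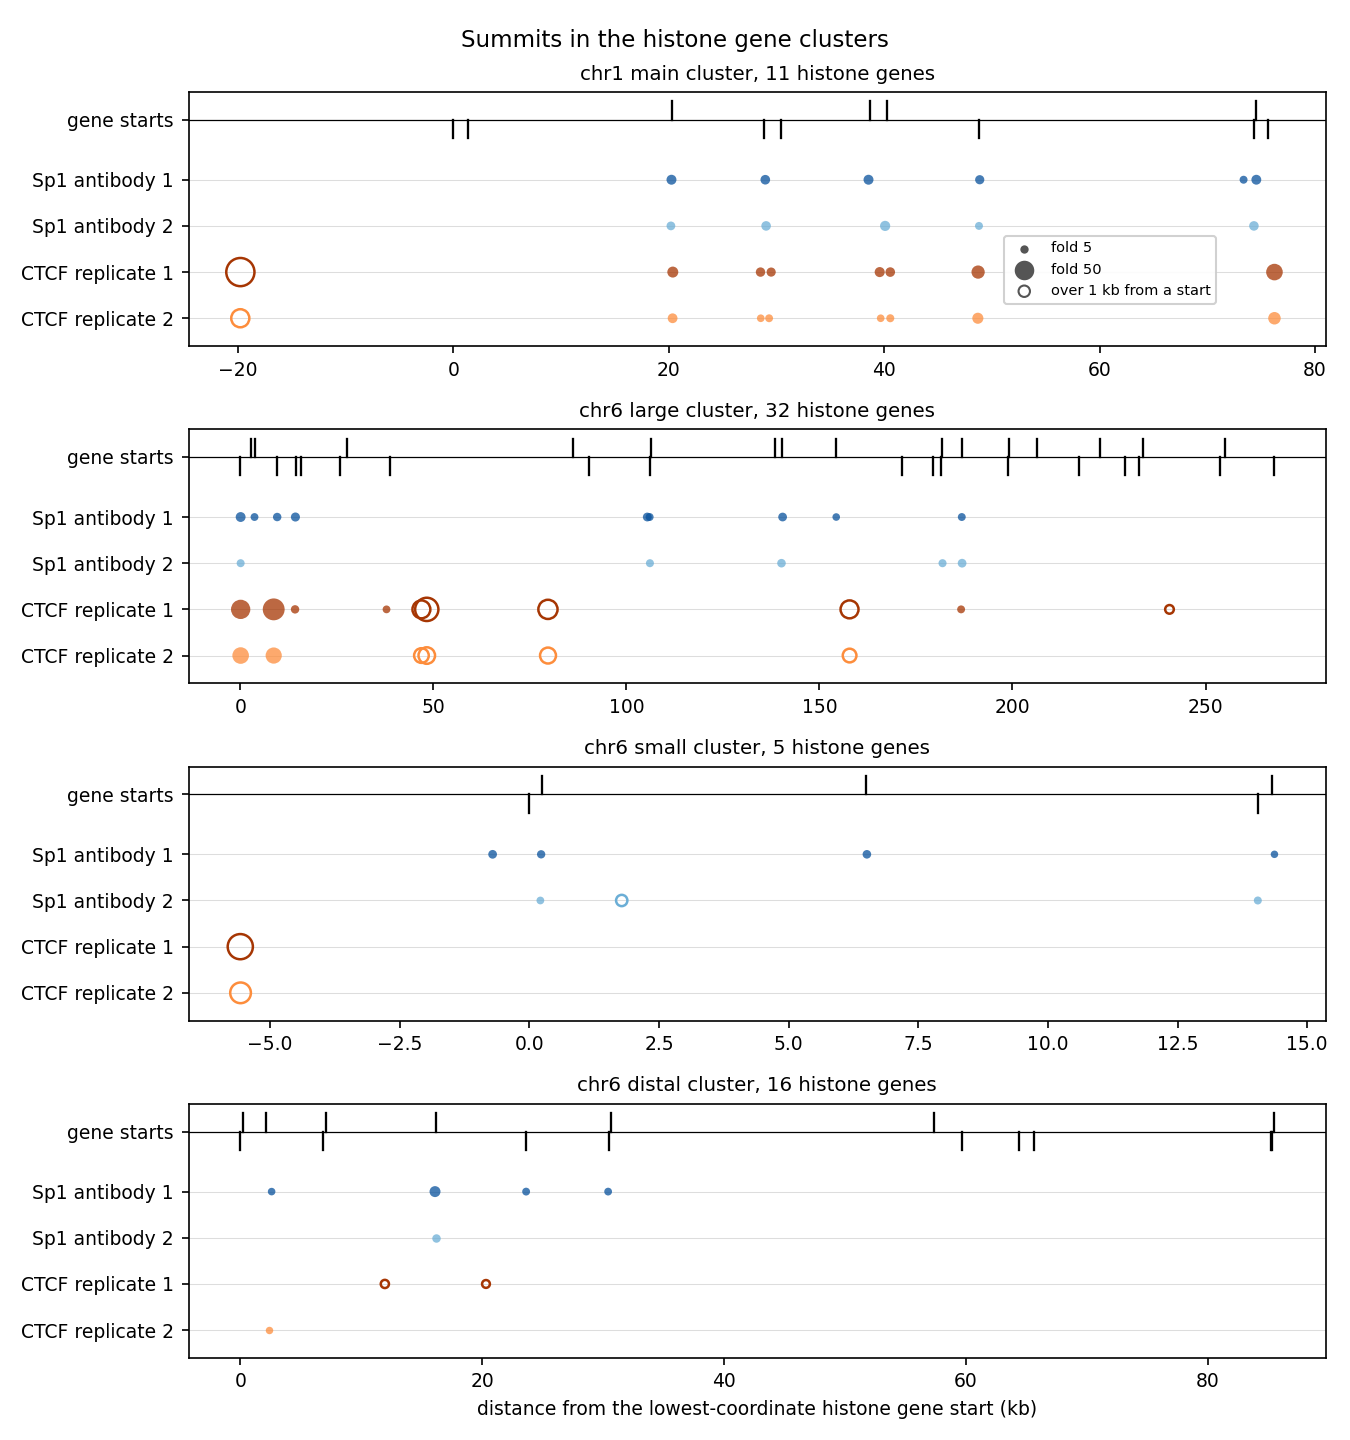
Summits along the 4 clusters with at least 5 histone genes, in kb from the lowest-coordinate gene start, with gene starts as ticks above (plus strand) or below (minus strand) the line. Filled circles are summits within 1 kb of a start and open circles those farther away, with area rising with fold enrichment; the large open CTCF circles stand in both replicates, and 1 open Sp1 circle stands in the small chromosome 6 cluster.

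The lone Sp1 summit between genes came from antibody 2, at position 27134575 of chromosome 6 in the small cluster, 1532 bp from the H2AC11 start. Its fold of 13.4 exceeded that of every promoter peak of a member in that list, and antibody 1 had no summit there. The 101 bases around it (chr6:27134525-27134625, plus strand) are shown because they hold no GC box and end in a run of T.

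Sp1 antibody 2: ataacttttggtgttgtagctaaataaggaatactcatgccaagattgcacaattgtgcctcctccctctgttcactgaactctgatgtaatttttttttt

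To ask what the members' promoters share in sequence, 9 short words were sought on both strands of the RefSeq promoters, 250 bases before to 50 after the start, on hg38. Of the 68 members 63 matched an entry by symbol, beside 15361 coding promoters in all. Entries were not matched by position, so an entry can lie at another start than the GENCODE start. A match is a description and not a site of binding. The GC box stood in 17 of 63 member promoters (27%), against 59.2% of all coding promoters. The CCAAT box stood in 85.7% against 36.6%, the TATA box in 65.1% against 9.62%, and the octamer in 41.3% against 1.71%. The median GC content of the member promoters was 43%, against 63% over all.

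The frequency of the words differed between families. All H1, H2A, H2B and H3 promoters held a CCAAT box, and 3 of 12 H4 promoters did. The octamer stood in 11 of 16 H2A and 14 of 18 H2B promoters, in 1 of 11 H3 promoters and in no H1 or H4 promoter. The 1 H3 entry was that of H3C4, which holds no TATA box. The 150 bases upstream of the GENCODE start of H3C4 hold a TATA box and no octamer, so the entry covers another place. The GC box stood in 7 of 12 H4 and 4 of 6 H1 promoters, in 4 of 11 H3 promoters and in 1 each of the H2A and H2B promoters. The H2A and H2B entries are H2AC20 and H2BC21, which share the same box. The ETS core (CCGGAA) was found in 5 of 12 H4 promoters and in 14.3% of all members, against 23.1% of all coding promoters. The cyclic AMP response element (TGACGTCA) stood in 9 of 63 members (14.3%), against 2.64% of all. The word TCGCGAGA was in none of the 63, against 1.8% of all, and the E2F words TTTCCCGC and TTTGGCGC were in 1 and in none of them, against 2.19% and 0.911%.

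**Figure D5:**
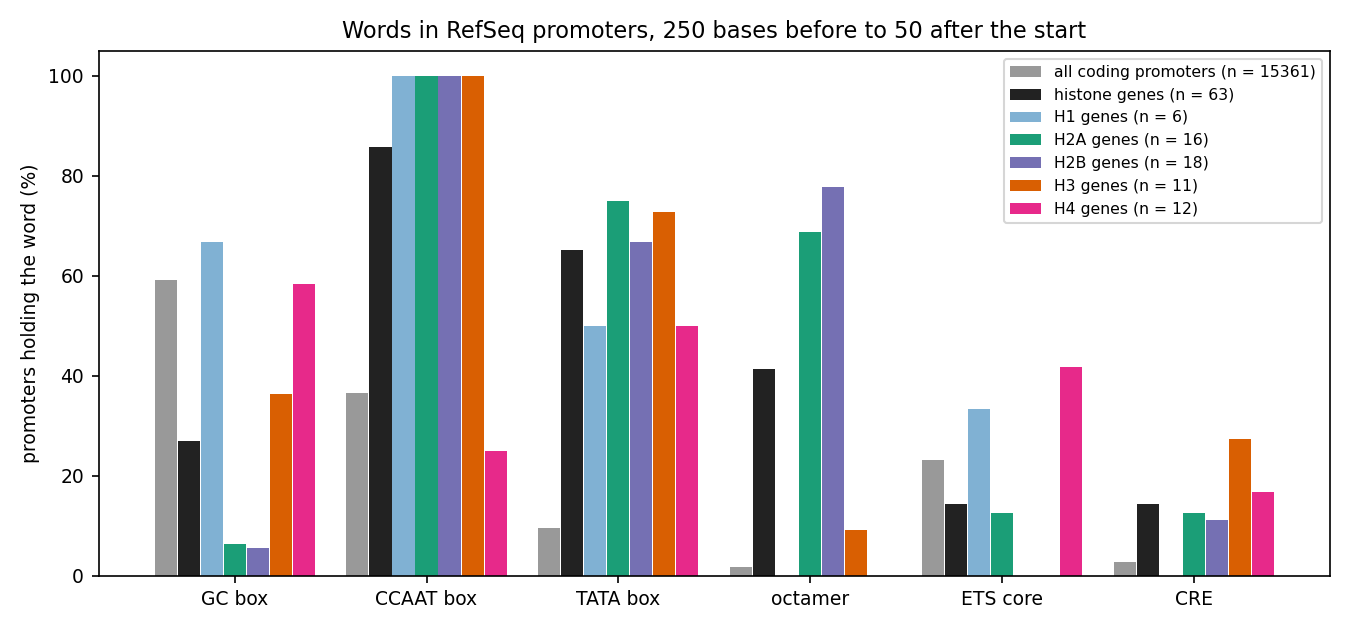
Share of RefSeq promoters (%) that hold each word on either strand, for all coding promoters, all histone genes and each histone family. CCAAT reaches 100% in every family but H4 (25%), and the octamer stands apart in H2A (68.8%) and H2B (77.8%). A word between divergent H2A and H2B starts can count for both genes. The GC box is most frequent in H1 (66.7%) and H4 (58.3%).

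Sp1 calls were set against the GC box. Of the 17 members with a GC box, 10 had Sp1 with either antibody (58.8%), and of the 46 without, 16 had (34.8%). These 16 include H2BC6, whose Sp1 summit lay at a GENCODE start with a GC box upstream. The RefSeq promoter of H2BC6 lies elsewhere and holds none. The 10 include H2BC21 and H2AC20, which share 1 GC box and its peaks. They also include the near copies H3C14 and H3C15, H4C14 and H4C15, and H4C11 and H4C12. Members without a GC box share peaks too, as at H2BC11–H2AC11, so both shares rest on fewer places than genes. Over all coding promoters the shares with Sp1 were 52.4% with a GC box and 28.4% without. Around the summits themselves, within 50 bp, a GC box lay at 5 of 23 antibody 1 peaks of members (21.7%), against 52.8% of all antibody 1 peaks, and at 6 of 13 antibody 2 peaks (46.2%), against 36.7%. At CTCF replicate 1 peaks of members it lay at 5 of 12 (41.7%), against 8.35% of all replicate 1 peaks, at promoters or elsewhere. The 12 include peaks at near-identical copies, and the share over coding promoter peaks alone was not computed. A TATA box lay within 50 bp of 5 of the 23 antibody 1 summits and 5 of the 13 antibody 2 summits, against 1.16% and 1.82% of all peaks. In the 12 spaces of up to 300 bp between divergent starts, a GC box was found in 1, CCAAT in all 12 with 3 to 6 copies, the octamer in 9 and the TATA box in 8.

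Histone genes outside the members, mostly replication-independent variants, were compared as a list of 29 symbols, of which 27 were found among coding genes. Antibody 1 called 9 and antibody 2 called 7, and 6 were called with both. These were CENPA, the centromeric H3 variant, H2AX, which is phosphorylated at DNA breaks, the H2A.Z genes H2AZ1 and H2AZ2, the H3.3 gene H3-3B, and H4C16, an H4 gene on chromosome 12. Their antibody 1 folds were 6.17 to 17.9. CTCF called 8 and 7 of the 27, and IgG none. Over all coding genes, antibody 1 called 37.3%, antibody 2 called 24.1% and both called 21.1%. The CTCF replicates called 32.4% and 24.8% of them. The counts of this list were not tested against these shares, and the named genes are examples only.

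Genes that act on histone gene expression and histone supply formed the other list. Of 31 listed symbols 30 were found. Antibody 1 called 25, antibody 2 called 19 and both called 17, against 37.3%, 24.1% and 21.1% of all coding genes. CTCF replicates 1 and 2 called 15 and 12, against 32.4% and 24.8%, and IgG called none. No difference from all coding genes was tested for this list. The 17 with both antibodies were ATM, CASP8AP2, CDK2, CPSF1, CPSF3, CREBZF, CSTF2, E2F3, ERI1, GON4L, HINFP, HIRA, NASP, NPAT, POU2F1, SYMPK and ZNF473. NPAT, the coactivator that cyclin E and CDK2 phosphorylate at histone loci, had 8.69 and 5.72 from peaks it shares with the neighbouring gene ATM. HINFP, which binds H4 promoters, had 24.5 and 6.33, and POU2F1, which encodes Oct-1, had 33.6 and 4.63. SLBP, which binds the stem-loop of histone mRNA, was called with antibody 1 alone (12.1).

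Other coding genes in the clusters numbered 3. BOLA1, next to H2BC21–H2AC20, had a summit in all 4 Sp1 and CTCF lists. Its antibody 1 summit was that of H2BC21–H2AC20 and its CTCF summits were those of H2AC21, while its antibody 2 summit (4.14, 2 bp from a BOLA1 start) served no member. HFE had none. The gene ENSG00000282988 had the antibody 2 peak that also serves H2AC7–H2BC7.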

How the data were processed

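ChIP-seq libraries were prepared in U-2 OS cells, 8 in all, of which 5 have a peak list and 3 are inputs. With steps as in the methods and versions as in the submitters' processing notes, the authors used cutadapt 2.6 for trimming, Bowtie2 2.4.5 for alignment (build hg38) and SAMtools 1.15.1 to remove duplicates, and called peaks per library with MACS2 2.2.7.1. The notes also name deepTools 3.5.4 and bedtools 2.27.1. The methods give earlier versions of Bowtie2 and SAMtools and call the peak caller MACS3. In the lists as deposited, each peak has its fold enrichment, a linear ratio to the control, its −log10 p-value and q-value, a score that was not used, and its summit offset. The methods name pooled control replicates for a reproducibility analysis, and whether this holds for the deposited lists is not stated. Lists held no read counts, and read numbers listed by the study were not used here, so no depth is given.

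Members, comparison lists and rules were chosen with earlier results of these data known. Starts came from GENCODE release 44. A gene was called when a summit lay within 1 kb of any start. Genes named in the text were those with both Sp1 antibodies, the 5 highest folds of each list, those nearest the limit, up to 3 shared CTCF sites between genes per cluster, and those that a count of 5 or fewer picked out. Shares carry 95% Wilson intervals. Near copies were found with blastn 2.17.0, and tables were made with Python 3.11.15, pandas 2.3.3 and scipy 1.17.1. The scoring was tested on simulated summits. Alternatives changed the limit, the start, the peak threshold, IgG overlap, near copies, cluster chaining and replicates.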

Additional observations from a re-analysis of the deposited data

How the results depend on the processing

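Of 82 alternative values of the main counts, 64 stayed within 1.5 times the main value. A 500 bp limit gave 7 members for CTCF replicate 1 and 5 for both CTCF replicates. A 5 kb limit gave 26 and 22 for CTCF replicates 1 and 2, 18 for both, 23 for both Sp1 antibodies and 25 for Sp1 with CTCF. Without members that have a near-identical copy, CTCF replicates 1 and 2 called 6 and 4, both called 3, and Sp1 with CTCF was called at 5. Leaving out a CTCF replicate gave 9 to 12 members in place of 8 for both replicates, 8 to 9 in place of 10 for Sp1 with CTCF, and 6 to 9 in place of 6 shared sites between genes. In the space between genes, chaining at up to 500 kb gave 14 and 11 CTCF summits, and a distance over 5 kb from a start removed the antibody 2 summit, leaving 0. A 20 kb flank, chosen after seeing the data, gave 2 and 3 summits of Sp1 antibodies 1 and 2, and 20 and 16 of CTCF. No paired analysis was possible because no test was run and only the CTCF libraries carry replicate numbers. IgG stayed at 0 members in each alternative run, of which a 5 kb limit was the widest. Lists end at a q-value threshold and carry no depth, so a gene without a summit may hold weaker signal.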
